A study of Mus musculus with 15 samples.

Results

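The Zscan4 cluster is a tandem family of near-identical mouse genes whose symbols run from Zscan4a to Zscan4f. Members were chosen by symbol, as the genes whose name is Zscan4 followed by 1 letter from a to f, and 5 of the 23845 genes in the deposited tables matched: Zscan4a, Zscan4b, Zscan4c, Zscan4d and Zscan4f. Zscan4e and the copies Zscan4-ps1, Zscan4-ps2 and Zscan4-ps3 had no entry under those names in the deposited tables, so they could not be analysed. All 5 members passed the filter on low counts, together with 14335 genes in all. Poly(A) RNA was sequenced from E14 cells, a widely used line of mouse embryonic stem cells, after transfection with small interfering RNA against Ddx10 (Ddx10KD), Ddx24 (Ddx24KD), Ddx27 (Ddx27KD), Ddx54 (Ddx54KD) or, as the control, EGFP (EGFPKD), with 3 libraries in each of the 5 groups. Every group, the control included, was grown on 0.2% gelatin, received 400 ng of small interfering RNA with 4 µL of Lipofectamine 2000 for 16 h and was harvested at 48 h. The targets are DEAD-box RNA helicases that act in ribosome assembly in the nucleolus. All groups come from 1 cell line.

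Zscan4 proteins carry a SCAN domain, through which zinc finger proteins pair, and a set of C2H2 zinc fingers that bind DNA. In the mouse the genes are switched on in a burst as the embryonic genome is activated at the 2-cell stage, and in cultures of embryonic stem cells they are on at any moment in a small, changing minority of cells that also express other genes of the 2-cell embryo. Zscan4 is known for its part in telomere lengthening by recombination and in genome stability in embryonic stem cells, and Dux, a double homeobox factor, is known to switch the 2-cell genes on.

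In the GENCODE M21 annotation of mm10, the build named in the submitters' processing notes, the members lie on chromosome 7 in a span of 608.1 kb. Zscan4a, annotated as an unprocessed pseudogene, lies at chr7:10794242-10799057 on the minus strand. The protein-coding members follow as Zscan4b at chr7:10900740-10905050 (minus strand), Zscan4c at chr7:11005745-11010547 (plus strand), Zscan4d at chr7:11161374-11166159 (minus strand) and Zscan4f at chr7:11397915-11402318 (plus strand). The span held 37 annotated genes, of which only the 5 members were found by name among the genes that passed the filter on low counts. None of the 5 nearest protein-coding genes on each side of the span was found among them either. Zscan4e and Zscan4-ps1 in the span, and Zscan4-ps2 and Zscan4-ps3 beside it, had no entry under those names. Their absence therefore says nothing about their level.

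The upstream sequences are shown because the members moved together, and because they let the copies be compared letter by letter. They are the 250 bases before the annotated start of each gene in RefSeq on GRCm38.p6, for the 4 members matched, at chr7:10905051-10905300 (Zscan4b, minus strand), chr7:11005495-11005744 (Zscan4c, plus strand), chr7:11166149-11166398 (Zscan4d, minus strand) and chr7:11397665-11397914 (Zscan4f, plus strand). Capitals mark TATAAA, the core of a TATA box.
Zscan4b: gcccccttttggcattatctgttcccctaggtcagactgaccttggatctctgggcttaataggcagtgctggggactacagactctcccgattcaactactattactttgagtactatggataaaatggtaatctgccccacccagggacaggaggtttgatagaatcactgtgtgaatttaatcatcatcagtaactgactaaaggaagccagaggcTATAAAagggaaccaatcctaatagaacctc
Zscan4c: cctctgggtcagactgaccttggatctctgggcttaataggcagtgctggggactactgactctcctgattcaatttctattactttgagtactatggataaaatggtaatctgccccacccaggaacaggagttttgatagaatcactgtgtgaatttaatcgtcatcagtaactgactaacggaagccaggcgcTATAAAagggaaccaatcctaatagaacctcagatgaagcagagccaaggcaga
Zscan4d: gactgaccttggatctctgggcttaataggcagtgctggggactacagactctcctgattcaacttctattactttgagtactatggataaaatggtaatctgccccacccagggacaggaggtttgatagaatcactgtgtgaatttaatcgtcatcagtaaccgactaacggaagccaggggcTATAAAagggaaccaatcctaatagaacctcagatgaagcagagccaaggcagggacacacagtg
Zscan4f: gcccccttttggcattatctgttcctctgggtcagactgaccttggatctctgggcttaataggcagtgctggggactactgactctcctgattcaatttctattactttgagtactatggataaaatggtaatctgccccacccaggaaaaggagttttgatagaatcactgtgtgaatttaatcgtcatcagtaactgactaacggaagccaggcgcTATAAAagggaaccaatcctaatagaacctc
The match began 31 bases before the annotated start in Zscan4b and Zscan4f, 54 bases before it in Zscan4c and 65 bases before it in Zscan4d. In the 300-base windows that add the first 50 bases of the gene, identity between copies ran from 95.3% (Zscan4b and Zscan4c) to 99.3% (Zscan4c and Zscan4f, 2 differences in 277 aligned bases). Read on both strands, TATAAA was in 4 of 4 member windows and in 13.62% of the 32851 windows of all genes. GATTNAATC, the core of the site of Dux, was in 0 of the 4 windows and in 0.27% of all, and CACACACA, a repeat of the kind ZSCAN4 protein is known to bind, was in 0 of the 4 and in 4.09% of all. A match is a description of the letters only.

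The transcripts are at least as alike as the promoters, which bears on how far the 5 values can be read apart. Identity between the annotated transcripts ran from 96.8% (Zscan4b and Zscan4d) to 99.6% (Zscan4c and Zscan4f). Of all stretches of 68 bases, about the mean fragment length implied by the deposited lengths (64.94 to 71.77 bases), 83.4% in Zscan4f were found in another member too. The share was 69.9% in Zscan4c, 1106 of 2212 stretches in Zscan4a, 40.3% in Zscan4d and 37.9% in Zscan4b. Between 35.6% (Zscan4d) and 87.5% (Zscan4f) of the stretches were also found in Zscan4e or a -ps copy. Only 1 of the 75 member values was within 0.005 of a whole number, against 46.9% to 48.5% of all genes above 10 counts, so nearly every member value holds reads that were divided between genes. The 5 members are therefore not 5 independent measurements, and the split among them is less certain than their sum. Both the sum and the split may also hold reads from Zscan4e or the -ps copies, which had no entry of their own. That part was not tested.

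The summed cluster was highest after knockdown of Ddx24, in between after knockdown of Ddx54 and Ddx27, and lowest after knockdown of Ddx10 and in the control. The sum was 51.5, 38.5 and 33.5 CPM (expected counts scaled to library size with TMM factors) in Ddx10KD, 83.5, 118.7 and 86.8 CPM in Ddx24KD, 81.8, 70.8 and 56.8 CPM in Ddx27KD, 83.1, 68.6 and 82.6 CPM in Ddx54KD, and 46.7, 43.7 and 59.0 CPM in EGFPKD. All 3 Ddx24KD and all 3 Ddx54KD libraries were above the highest control library, the lowest Ddx27KD library was below it, and the Ddx10KD libraries overlapped the control from below. Means were 41.2 ± 9.27 CPM in Ddx10KD, 96.3 ± 19.4 CPM in Ddx24KD, 69.8 ± 12.5 CPM in Ddx27KD, 78.1 ± 8.22 CPM in Ddx54KD and 49.8 ± 8.11 CPM in EGFPKD (SD, n = 3 each). As a share of the control mean these were 82.6% in Ddx10KD, 193% in Ddx24KD, 140% in Ddx27KD and 157% in Ddx54KD. Ddx24KD replicate 2 was the highest of all 15 libraries, and without it the Ddx24KD mean was 85.2 CPM, or 1.71 times the control mean. In RNA from whole cultures, a change in the number of cells with the genes on and a change in the RNA of each such cell cannot be told apart. No p was computed for the sum, since it is a score over the members.

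**Figure D1:**
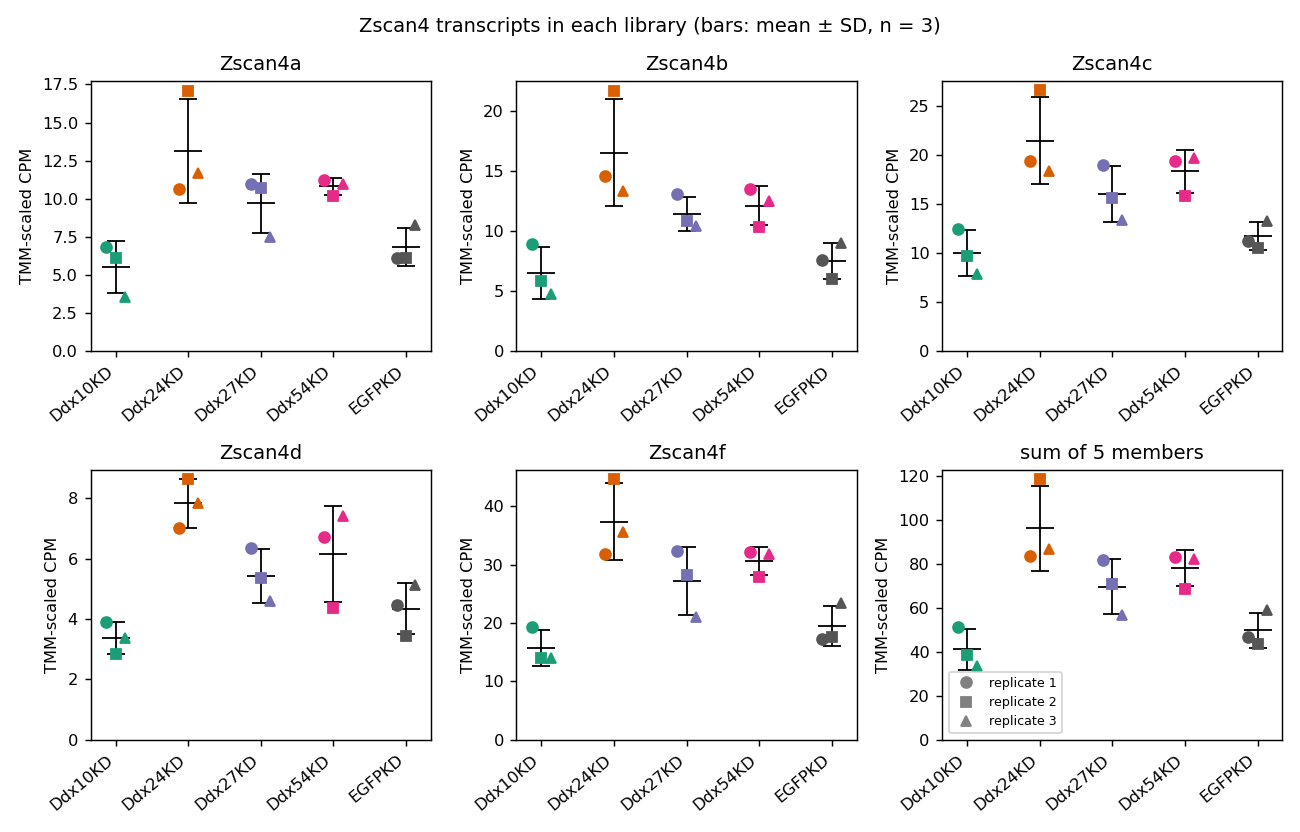
Level of each Zscan4 member and of their sum in the 15 libraries, as TMM-scaled CPM on axes that start at 0, with knockdowns to the left and EGFPKD at the right of each panel. Points are libraries, shaped by replicate number, and bars are the mean and SD of 3. The sum averages 96.3 CPM in Ddx24KD and 49.8 CPM in EGFPKD.

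Among the members Zscan4f, one of the protein-coding copies, was the most abundant in every library. Per length, on the deposited TPM scale, it held 39.5% to 44.7% of the summed level, Zscan4c 18.2% to 21.9%, Zscan4b 15.5% to 20.6%, Zscan4a 9.26% to 13.9% and Zscan4d 6.29% to 9.90%. The ranges of Zscan4b and Zscan4c overlap, so the order of those neighbours is not fixed over the libraries, and the same holds for Zscan4a and Zscan4d. Zscan4f averaged 18.4 ± 3.70 TPM in Ddx10KD, 42.2 ± 6.59 TPM in Ddx24KD, 31.1 ± 6.22 TPM in Ddx27KD, 35.0 ± 3.57 TPM in Ddx54KD and 21.9 ± 3.98 TPM in EGFPKD (SD, n = 3 each). Its mean share of the summed TPM was 41.6% in Ddx10KD, 41.9% in Ddx24KD, 41.9% in Ddx27KD, 42.5% in Ddx54KD and 42.2% in EGFPKD, so the makeup of the cluster hardly moved while its level did. Behind these values stand 921 to 3181 expected counts per library for the sum, and 76.87 to 1197.74 for a single member.

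**Figure D2:**
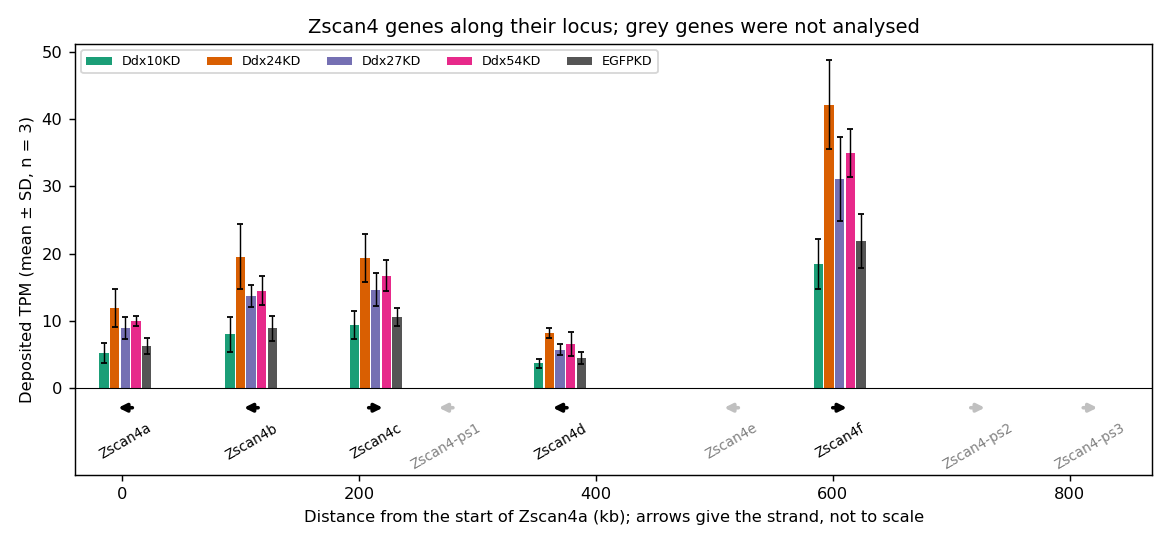
Position of the Zscan4 genes as distance in kb from the start of Zscan4a, with the strand as an arrow, and above each member its mean deposited TPM with the SD of 3 libraries in Ddx10KD, Ddx24KD, Ddx27KD, Ddx54KD and EGFPKD, from left to right. Zscan4f, the last member of the row, has the tallest bars, with 42.2 TPM in Ddx24KD and 21.9 TPM in EGFPKD.

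Every member differed among the 5 groups in the edgeR quasi-likelihood test over all groups, with adjusted p from 0.000224 (Zscan4f) to 0.00218 (Zscan4a), in a test that called 29.0% of all genes. Here and below, a gene is called at an adjusted p under 0.05, adjusted over the 14335 genes tested.

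After knockdown of Ddx24 all 5 members rose. Zscan4f was at 31.8, 44.7 and 35.6 CPM in Ddx24KD and 17.3, 17.7 and 23.4 CPM in EGFPKD. Zscan4b, which showed the largest change of the 5, was at 14.6, 21.6 and 13.3 CPM in Ddx24KD and 7.60, 5.98 and 8.98 CPM in EGFPKD. Zscan4c was at 19.4, 26.6 and 18.4 CPM in Ddx24KD and 11.3, 10.6 and 13.3 CPM in EGFPKD. For each of these genes the lowest Ddx24KD library was above the highest control library. Zscan4a, the copy annotated as a pseudogene, was at 10.6, 17.05 and 11.7 CPM in Ddx24KD and 6.10, 6.09 and 8.24 CPM in EGFPKD. Zscan4d, the least abundant member, was at 7.03, 8.65 and 7.83 CPM in Ddx24KD and 4.46, 3.44 and 5.12 CPM in EGFPKD. The groups did not overlap for these copies either. Such separation of Ddx24KD and EGFPKD, in either direction, was seen for 40.7% of all genes tested. The log2 changes were 1.13 ± 0.22 (SE) for Zscan4b (adjusted p = 0.00103), 0.95 ± 0.22 for Zscan4a (0.00390), 0.94 ± 0.17 for Zscan4f (0.000601), 0.88 ± 0.17 for Zscan4c (0.00138) and 0.85 ± 0.19 for Zscan4d (0.00356). In this comparison 15% of all genes tested were called higher. All 5 calls held when each of the 15 libraries was left out in turn, Ddx24KD replicate 2 included.

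After knockdown of Ddx54, 4 of the 5 members rose, where 13.1% of all genes were called higher. Zscan4f was at 32.3, 27.9 and 31.9 CPM in Ddx54KD, against the control values above, and all 3 were higher than any control library. Its log2 change was 0.66 ± 0.17 (adjusted p = 0.00955). Zscan4c was at 19.4, 15.8 and 19.8 CPM (0.65 ± 0.17, 0.0126), Zscan4b at 13.5, 10.3 and 12.5 CPM (0.69 ± 0.22, 0.0303) and Zscan4a at 11.2, 10.2 and 10.98 CPM (0.66 ± 0.22, 0.0349), each above the control libraries. Ddx54KD and EGFPKD did not overlap for 40.2% of all genes tested. Zscan4d was at 6.70, 4.37 and 7.40 CPM in Ddx54KD, and its second library lay within the control range. Its log2 change of 0.50 ± 0.19 missed the threshold (adjusted p = 0.0694). With the replicate number as a block, which suits these data because libraries of the same number deviate together, Zscan4d passed as well (adjusted p = 0.0257), in a fit that called 20% of all genes higher. The count of members called fell to 2 without EGFPKD replicate 1 or Ddx54KD replicate 1, and to 1, Zscan4f, without EGFPKD replicate 2 or Ddx54KD replicate 3.

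After knockdown of Ddx27, 2 of the 5 members rose, where 17.3% of all genes were called higher. Zscan4f was at 32.4, 28.3 and 21.0 CPM in Ddx27KD, and the third library lay below the highest control library of 23.4 CPM. Its log2 change was 0.49 ± 0.17 (adjusted p = 0.0360). Zscan4b was at 13.1, 10.8 and 10.4 CPM in Ddx27KD, all above the control, with a log2 change of 0.60 ± 0.22 (adjusted p = 0.0442). Ddx27KD and EGFPKD did not overlap for 46.7% of all genes tested. The other members had positive log2 changes that missed the threshold. Zscan4c was at 19.0, 15.6 and 13.4 CPM (0.45 ± 0.17, adjusted p = 0.0569), Zscan4a at 10.9, 10.7 and 7.46 CPM (0.51 ± 0.22, 0.0854) and Zscan4d at 6.34, 5.35 and 4.58 CPM (0.32 ± 0.20, 0.226). With the replicate block 4 members were called, Zscan4a (adjusted p = 0.0437) and Zscan4c (0.0273) in addition, in a fit that called 23.3% of all genes higher. Without the block no member was called when EGFPKD replicate 1, EGFPKD replicate 2, Ddx27KD replicate 1 or Ddx27KD replicate 2 was left out. Leaving out Ddx10KD replicate 2 or Ddx54KD replicate 3 left 1 call, and leaving out Ddx10KD replicate 3 gave 4.

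After knockdown of Ddx10 no member passed the test, where 16.5% of all genes were called higher and 14.5% lower. Zscan4f was at 19.3, 14.0 and 13.9 CPM in Ddx10KD, Zscan4c at 12.5, 9.70 and 7.90 CPM and Zscan4b at 8.93, 5.83 and 4.73 CPM. Zscan4a was at 6.83, 6.12 and 3.57 CPM and Zscan4d at 3.91, 2.84 and 3.38 CPM. For every member the Ddx10KD libraries overlapped the control libraries, while 46.2% of all genes tested had no overlap between these groups. The log2 changes were -0.30 (95% interval -0.67 to 0.07) for Zscan4f, -0.22 (-0.60 to 0.16) for Zscan4c, -0.21 (-0.69 to 0.27) for Zscan4b, -0.31 (-0.79 to 0.18) for Zscan4a and -0.36 (-0.79 to 0.08) for Zscan4d, with adjusted p from 0.204 to 0.527. In the edgeR test 0 members reached even an unadjusted p under 0.05. Zscan4f, with an unadjusted p of 0.1, ranked 7049 among the 14335 genes tested. With the block, with DESeq2 or with any library left out, 0 members were called. The upper interval bounds lie below the changes measured in Ddx24KD for all 5 members.

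**Figure D3:**
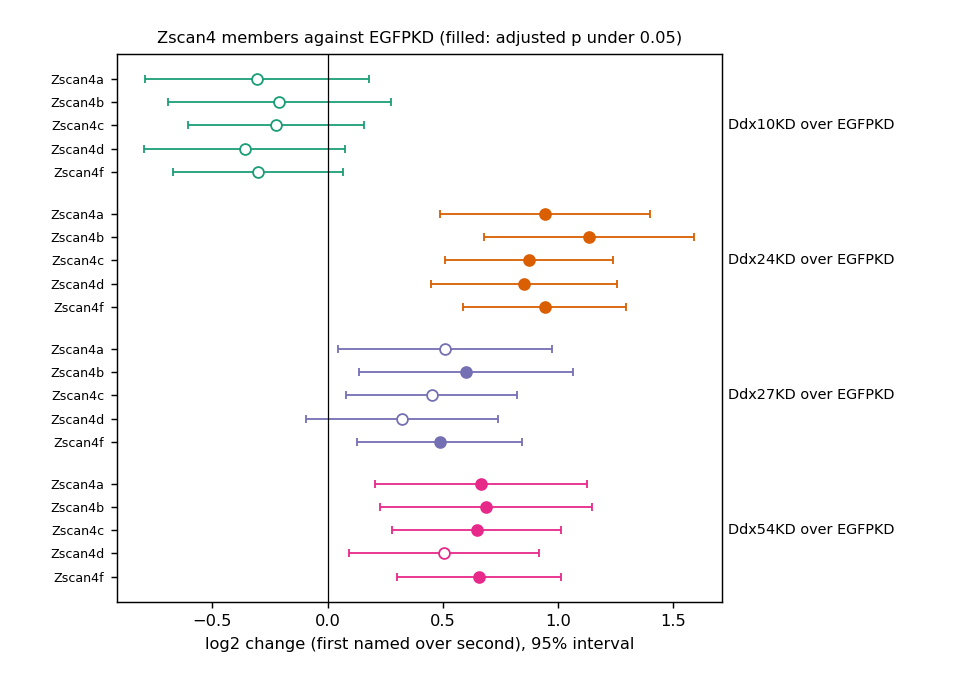
Fitted log2 change of each member in each knockdown over EGFPKD, with its 95% interval, from the edgeR fit of 15 libraries. Filled points passed an adjusted p of 0.05, which all 5 members did in Ddx24KD, 4 in Ddx54KD, 2 in Ddx27KD and 0 in Ddx10KD.

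Since the 4 comparisons share the control libraries, the knockdowns were set against each other directly. All 5 members were lower in Ddx10KD than in Ddx24KD, with no overlap between the libraries. This pair did not overlap for 14.9% of all genes tested. The log2 differences, Ddx10KD over Ddx24KD, were -1.34 ± 0.22 for Zscan4b (adjusted p = 0.00681), -1.25 ± 0.22 for Zscan4a (0.0132), -1.25 ± 0.17 for Zscan4f (0.00193), -1.21 ± 0.20 for Zscan4d (0.00681) and -1.10 ± 0.17 for Zscan4c (0.00654). In the edgeR fit without the block 59 genes, or 0.412% of those tested, differed between this pair of knockdowns. The Zscan4 members were 5 of them, or 8.47%, though they share reads and are not 5 separate results. With the replicate block 776 genes (5.41%) were called, and by DESeq2 173 genes, the 5 members among them each time. Leaving out Ddx10KD replicate 2 left 3 of the 5 calls (Zscan4b at 0.0566 and Zscan4d at 0.0586 were lost), leaving out Ddx10KD replicate 3 also left 3 (Zscan4a at 0.0722 and Zscan4b at 0.0573), and leaving out Ddx24KD replicate 2 left 4 (Zscan4a at 0.0609). In a fit of these 6 libraries alone 2 calls were left, Zscan4d and Zscan4f, of 18 genes called in all.

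Ddx10KD also differed from Ddx54KD, where 4 members were lower and 1.43% of all genes were called. The log2 differences, Ddx10KD over Ddx54KD, were -0.96 ± 0.17 for Zscan4f (adjusted p = 0.0116), -0.87 ± 0.18 for Zscan4c (0.0227), -0.97 ± 0.22 for Zscan4a (0.0384) and -0.86 ± 0.20 for Zscan4d (0.0406). Zscan4b, at -0.90 ± 0.22, missed the threshold (0.0550) and passed with the block (0.00674), in a fit that called 10.6% of all genes. These calls rest on few libraries. No member was called without Ddx10KD replicate 2 or Ddx10KD replicate 3, 1 without Ddx54KD replicate 1 or Ddx54KD replicate 3, and 2 without EGFPKD replicate 1. Against Ddx27KD, Ddx10KD had log2 differences from -0.82 (Zscan4a) to -0.68 (Zscan4c). The libraries of these groups were apart for every member and for 17.1% of all genes tested. No member passed at first (adjusted p from 0.0779 to 0.196, with 0.223% of all genes called). All 5 passed with the block (0.00878 to 0.0340, with 5.34% of all genes called). DESeq2 called 4 of them, and 168 of all 14335 genes.

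Differences among the other 3 knockdowns did not pass the test. For Zscan4f the log2 difference was 0.46 (95% interval 0.11 to 0.80) in Ddx24KD over Ddx27KD, 0.28 (-0.06 to 0.63) in Ddx24KD over Ddx54KD and -0.17 (-0.52 to 0.18) in Ddx27KD over Ddx54KD. No member was called in these pairs by edgeR, with the block or by DESeq2, where edgeR called 0.0209%, 0.0558% and 0.0140% of all genes in that order. At an unadjusted p under 0.05, edgeR had 4, 1 and 0 members. Among the 14335 genes tested, Zscan4a ranked 640 in Ddx24KD over Ddx27KD, with an unadjusted p of 0.0532. Zscan4b ranked 860 in Ddx24KD over Ddx54KD, with 0.046. The intervals allow differences of the size seen between Ddx27KD and EGFPKD, so the order of Ddx24KD, Ddx54KD and Ddx27KD is not settled by these libraries.

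**Figure D4:**
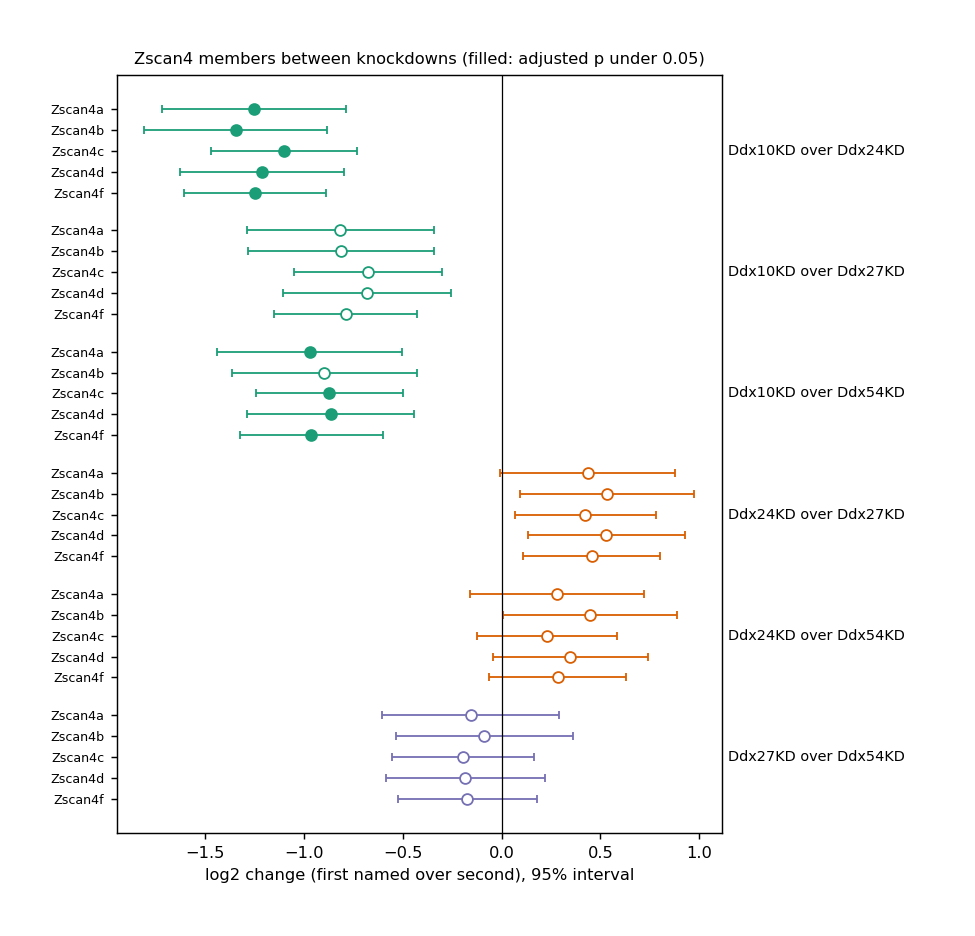
Fitted log2 difference of each member between knockdowns, first named over second, with its 95% interval. Filled points passed an adjusted p of 0.05. They are the 5 members in Ddx10KD over Ddx24KD and 4 members in Ddx10KD over Ddx54KD, all below 0.

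Other genes of the 2-cell embryo were called higher most often in Ddx24KD and least often in Ddx10KD. Of a list of 52 such genes 40 matched and 31 passed the filter. Those called higher were 2 in Ddx10KD, 20 in Ddx24KD, 10 in Ddx27KD and 9 in Ddx54KD, and 0 were called lower (with the block 1 in Ddx10KD, Ddx24KD and Ddx27KD each). Among all genes tested, 16.5% were called higher in Ddx10KD, 15% in Ddx24KD, 17.3% in Ddx27KD and 13.1% in Ddx54KD, so the 2 of 31 in Ddx10KD lie below the share of all genes. Their median log2 change was -0.0528 in Ddx10KD, 0.813 in Ddx24KD, 0.426 in Ddx27KD and 0.425 in Ddx54KD, where the median of all genes tested was between 0.0031 and 0.00813. Between knockdowns, 9 of the 31 were lower in Ddx10KD than in Ddx24KD (18 with the block), 2 were lower in Ddx10KD than in Ddx27KD (8 with the block) and 5 were lower in Ddx10KD than in Ddx54KD (9 with the block). Of all genes, those pairs called 0.412%, 0.223% and 1.43% in either direction in that order, and 5.41%, 5.34% and 10.6% with the block. Leaving out EGFPKD replicate 1 or 2 left 1 call in Ddx10KD. In Ddx27KD, 6 were left without EGFPKD replicate 1 and 5 without EGFPKD replicate 2, Ddx27KD replicate 1 or Ddx27KD replicate 2, and in Ddx54KD 5 were left without EGFPKD replicate 2. Several of these genes are themselves in families of near-identical copies, so their counts are uncertain in the same way as those of Zscan4.

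Gm2016 and Gm2022, predicted genes of that list, gave the smallest p over the groups. Gm2016 averaged 5.42 ± 0.638 CPM in Ddx10KD, 11.4 ± 0.235 CPM in Ddx24KD, 7.77 ± 0.527 CPM in Ddx27KD, 9.15 ± 0.388 CPM in Ddx54KD and 5.44 ± 0.0926 CPM in EGFPKD (SD, n = 3 each). Its log2 change was 1.06 ± 0.10 in Ddx24KD (adjusted p = 1.39e-06), 0.51 ± 0.10 in Ddx27KD (0.000859) and 0.75 ± 0.10 in Ddx54KD (4.86e-05), and in Ddx10KD it was 0.00 ± 0.10 (0.985). Gm2022 rose by 1.10 in Ddx24KD, 0.69 in Ddx27KD and 0.88 in Ddx54KD on the log2 scale, with -0.05 in Ddx10KD (adjusted p = 0.795). Both kept the pattern of the Zscan4 genes, with Ddx10KD beside the control.

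Dux, the factor known to switch on the 2-cell genes, had few reads and, unlike the Zscan4 members, was called higher in Ddx10KD too. It is named for that role, after its values were seen. It had 29, 15 and 14 expected counts in Ddx10KD, 30, 32 and 24 in Ddx24KD, 22, 23 and 23 in Ddx27KD, 14, 17.86 and 24 in Ddx54KD and 7, 4 and 12 in EGFPKD. All knockdown libraries were above all control libraries, Ddx10KD included, where 40.2% to 46.7% of all genes had no overlap in a single knockdown. Its log2 change was 1.29 ± 0.38 in Ddx10KD (adjusted p = 0.0173), 1.90 ± 0.36 in Ddx24KD (0.00106), 1.55 ± 0.37 in Ddx27KD (0.00445) and 1.25 ± 0.39 in Ddx54KD (0.0264). The call in Ddx10KD was lost without EGFPKD replicate 1 (0.0576), EGFPKD replicate 2 (0.0826) or Ddx10KD replicate 1 (0.109). That in Ddx54KD was lost without EGFPKD replicate 1 (0.0832), EGFPKD replicate 2 (0.111), Ddx54KD replicate 2 (0.053) or Ddx54KD replicate 3 (0.121). Ddx10KD and Ddx24KD did not differ in Dux beyond the test (-0.60 ± 0.31, adjusted p = 0.507). Nor did any other pair of knockdowns in the edgeR test (adjusted p up to 0.998), so the order of the knockdowns in Dux is not settled.

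Many genes known to hold the 2-cell state in check fell, in Ddx10KD as well as in the other knockdowns. Of 28 such genes, 12 were lower in Ddx10KD, 10 in Ddx24KD, 14 in Ddx27KD and 13 in Ddx54KD, and 1, 0, 1 and 1 were higher in that order. Among all genes the shares called lower were 14.5% in Ddx10KD, 13.1% in Ddx24KD, 16.1% in Ddx27KD and 11.2% in Ddx54KD. With the block 15, 15, 16 and 15 of the 28 were lower, where 21.3%, 19.9%, 22.6% and 18.8% of all genes were. In that fit 1 was higher in each knockdown. Trim28, a corepressor that silences retroelements, averaged 2317 CPM in Ddx10KD, 2373 CPM in Ddx24KD, 2244 CPM in Ddx27KD, 2344 CPM in Ddx54KD and 2935 CPM in EGFPKD. It fell by 0.34, 0.31, 0.39 and 0.32 on the log2 scale in the 4 knockdowns in that order. Uhrf1, needed for the upkeep of DNA methylation, fell by 0.53 in Ddx10KD and by 0.48 in Ddx24KD, and Ehmt2, a histone H3 lysine methyltransferase, fell by 0.57 in Ddx10KD and by 0.52 in Ddx24KD. Myc, a transcription factor of cell growth, fell by 0.67 in Ddx10KD, 0.35 in Ddx24KD, 0.42 in Ddx27KD and 0.31 in Ddx54KD.

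Of 11 tested genes known to promote the 2-cell state, 2 were higher and 2 lower in Ddx10KD (4 lower with the block). In Ddx24KD 2 were higher (3 higher and 1 lower with the block), and in Ddx27KD 2 (3 with the block). In Ddx54KD 0 were called (5 higher and 2 lower with the block). Of all genes, 13.1% to 17.3% were called higher and 11.2% to 16.1% lower in a knockdown. With the block 21.3% were higher in Ddx24KD, 23.3% in Ddx27KD and 20% in Ddx54KD. Those lower with the block were 21.3% in Ddx10KD, 19.9% in Ddx24KD and 18.8% in Ddx54KD. Kdm5b, a histone demethylase, had log2 changes of 0.15 in Ddx10KD, 0.17 in Ddx24KD and 0.20 in Ddx27KD, each called, and 0.10 in Ddx54KD (adjusted p = 0.0852). Dppa2, a factor upstream of Dux, was lower in Ddx10KD (-0.20, adjusted p = 0.0355), a call lost without any of the EGFPKD libraries or without Ddx10KD replicate 1 or 3 (adjusted p up to 0.132).

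Of 22 genes for telomeres and recombination, 3 were higher in Ddx10KD, 3 in Ddx24KD, 3 in Ddx27KD and 2 in Ddx54KD, and 0, 1, 0 and 1 were lower in that order. The shares of all genes called higher were 16.5%, 15%, 17.3% and 13.1%, so these counts are near or below the background. With the block 5, 5, 6 and 5 were higher and 3, 3, 0 and 1 lower, where 22.8%, 21.3%, 23.3% and 20% of all genes were higher and 21.3%, 19.9%, 22.6% and 18.8% lower. Tert, the catalytic subunit of telomerase, averaged 20.3 CPM in Ddx10KD, 18.8 CPM in Ddx24KD, 21.5 CPM in Ddx27KD, 20.9 CPM in Ddx54KD and 15.2 CPM in EGFPKD. Its log2 change was 0.42 in Ddx10KD, 0.31 in Ddx24KD, 0.50 in Ddx27KD and 0.46 in Ddx54KD, each called. The call in Ddx24KD was lost without EGFPKD replicate 1 (adjusted p = 0.0639) or Ddx24KD replicate 3 (0.0714). Among 10 other genes of the SCAN zinc finger family, Zscan10 and Zscan25 were called higher in every knockdown and the rest in none, a count near the share of all genes called higher. Zscan10, a pluripotency factor, changed by 0.32 in Ddx10KD, 0.22 in Ddx24KD, 0.27 in Ddx27KD and 0.18 in Ddx54KD on the log2 scale, and its call in Ddx54KD was lost without EGFPKD replicate 2 or 3 or Ddx54KD replicate 1 or 2 (adjusted p 0.0666 to 0.13). Zscan25 changed by 0.38 in Ddx10KD, 0.28 in Ddx24KD, 0.39 in Ddx27KD and 0.24 in Ddx54KD, and its call in Ddx54KD (adjusted p = 0.0388) was lost without any of the EGFPKD or Ddx54KD libraries or Ddx27KD replicate 2, and that in Ddx24KD without Ddx24KD replicate 1 (0.0982). Neither Tert nor Zscan10 had its lowest knockdown value in Ddx10KD, where the Zscan4 members had theirs.

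The genes whose pattern over the 15 libraries was most like that of the summed cluster were mostly further 2-cell genes. Among 12232 genes with a mean of at least 1 TPM, Pearson's r of log2 CPM with the sum was 0.967 for BB287469, 0.958 for Gm5662, 0.949 for Gm8300, 0.944 for Gm8994, 0.939 for Gm2022, 0.932 for Gm5039, 0.924 for Ldb1 and 0.921 for Gm20767. The median r of all genes was -0.00419. Of these 8 genes, Gm5662, Gm8300, Gm8994, Gm2022 and Gm20767 were in the 2-cell list. BB287469 averaged 2.71 ± 0.808 CPM in Ddx10KD, 6.01 ± 0.999 CPM in Ddx24KD, 4.65 ± 0.863 CPM in Ddx27KD, 4.67 ± 0.5004 CPM in Ddx54KD and 2.83 ± 0.355 CPM in EGFPKD (SD, n = 3 each). Ldb1, a cofactor of LIM domain proteins, shared the shape but not the size, with 257 CPM in Ddx24KD and 235 CPM in EGFPKD on average. The lowest r was -0.895 for Tmem135, -0.864 for Zbtb21 and -0.855 for Trap1, a mitochondrial chaperone. Libraries share depth, group and replicate number, so these r describe likeness in these libraries only.

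**Figure D5:**
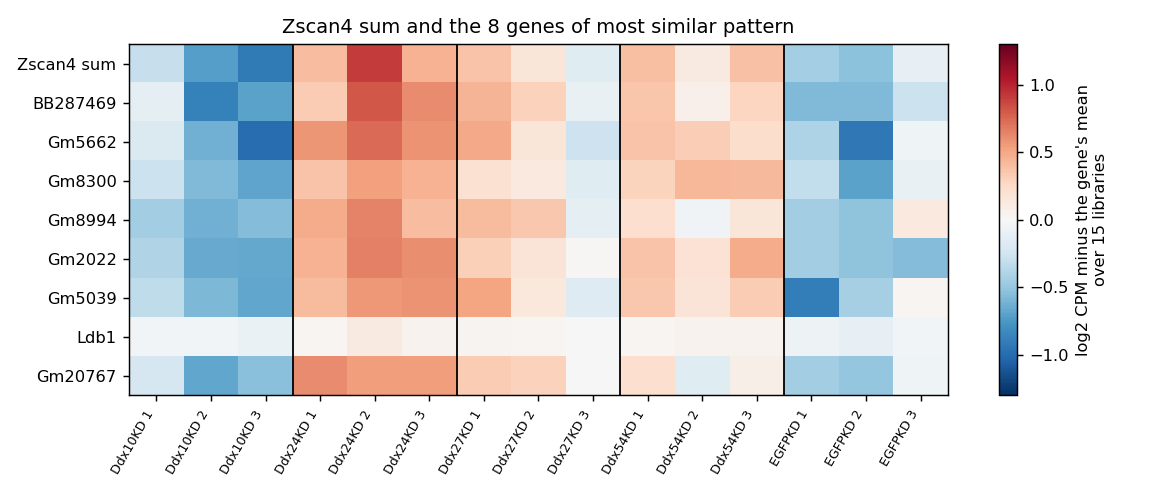
Log2 CPM minus each gene's mean over the 15 libraries, as colour, for the summed cluster and the 8 genes most like it, with libraries in columns by group and replicate, knockdowns left of EGFPKD. The Ddx24KD columns are the reddest and the Ddx10KD and EGFPKD columns mostly blue. Ldb1 varies little, though its r is 0.924.

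The members also varied together within groups. Pearson's r between members over the 15 libraries was 0.863 to 0.983, and 0.464 to 0.95 after group means were removed. Within Ddx10KD the highest library of the sum was 1.54 times the lowest, within Ddx24KD 1.42 times, within Ddx27KD 1.44 times, within Ddx54KD 1.21 times and within EGFPKD 1.35 times. With group means removed, the genes most like the sum were Ppp6c (r = 0.901), BB287469 (0.893), Tnfrsf21 (0.872), Uxs1 (0.86), Fbxl14 (0.86), Tead3 (0.846), Gm5662 (0.837) and Mef2d (0.836). BB287469 and Gm5662 were on both lists, though r over the 15 libraries already includes the deviations within groups. Ppp6c, the closest with group means removed, had r = 0.0161 over the 15 libraries. Members share reads, and the part of that in their likeness was not tested.

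The authors' deposited EBSeq tables named as many members as the edgeR test in Ddx10KD and Ddx54KD, 1 fewer in Ddx27KD and 4 fewer in Ddx24KD. In the authors' deposited table a posterior probability of change of at least 0.95 was given to 0 members in Ddx10KD, to Zscan4d in Ddx24KD, to Zscan4b in Ddx27KD and to Zscan4a, Zscan4b, Zscan4c and Zscan4f in Ddx54KD. The share of all rows at that probability in the authors' deposited tables was 17.1% in Ddx10KD, 12.4% in Ddx24KD, 18.3% in Ddx27KD and 13.1% in Ddx54KD. For Zscan4f the authors' deposited table gave a ratio to the control of 0.807 in Ddx10KD, 1.61 in Ddx24KD, 1.40 in Ddx27KD and 1.57 in Ddx54KD. The ratio of library means was 0.810 in Ddx10KD, 1.92 in Ddx24KD, 1.40 in Ddx27KD and 1.58 in Ddx54KD. The values for Ddx24KD therefore stand apart from the deposited libraries, and those of the other knockdowns do not.

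Libraries held 26836946 to 27708782 expected counts. Each targeted helicase was reduced in its own knockdown, with 18.5% of the control level left in Ddx10KD, 30.8% in Ddx24KD, 22.7% in Ddx27KD and 28.0% in Ddx54KD. On the second principal component of all tested genes (9.11% of the variance) Ddx24KD replicate 2 lay farthest out, at -19.7, and it is also the library with the highest Zscan4 sum. Replicate 2 was negative there in every group, at -9.16 in Ddx10KD, -10.4 in Ddx27KD, -17 in Ddx54KD and -9.2 in EGFPKD. Its Zscan4 sum was the lowest of the group in Ddx54KD (68.6 CPM) and EGFPKD (43.7 CPM), and in the middle in Ddx10KD and Ddx27KD. Summed markers of embryonic stem cells were at 5566 to 6287 CPM in the knockdowns and 6208 to 6450 CPM in EGFPKD, with none of the 10 at 0. Within that sum edgeR called Zfp42 lower in every knockdown, and Nanog and Tfcp2l1 lower in Ddx10KD, Ddx24KD and Ddx27KD. Pou5f1 was called lower in Ddx27KD and Ddx54KD, and Sox2 higher in Ddx24KD, Ddx27KD and Ddx54KD. The 10 fibroblast markers summed to 15.8 to 21.3 CPM in the knockdowns and 21.2 to 27.4 CPM in EGFPKD, and 2 or 3 of them were at 0 in a group. The 8 trophoblast markers summed to 120.2 to 191.6 CPM in the knockdowns and 93.6 to 119.6 CPM in EGFPKD. Most of that sum was Tfap2c, with means of 143 CPM in Ddx10KD, 132 CPM in Ddx24KD, 135 CPM in Ddx27KD, 144.0 CPM in Ddx54KD and 91.0 CPM in EGFPKD. By edgeR Tfap2c was called higher in every knockdown (adjusted p 0.0123 to 0.0367). Cdx2, Eomes, Gata3, Hand1 and Ascl2 averaged 0.332 to 8.22 CPM with no call over EGFPKD. The 8 endoderm markers summed to 7.27 to 17.5 CPM in the knockdowns and 7.16 to 10.3 CPM in EGFPKD. Among them edgeR called Sox7 lower in every knockdown (adjusted p 0.00937 to 0.027) and Gata6 higher in Ddx10KD alone (0.0351). The part of these markers in the Zscan4 values was not tested.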

How the data were processed

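Poly(A) RNA of 15 libraries was measured, and groups and replicate numbers were taken from the labels. For each library the authors deposited RSEM values on mm10, per the submitters' processing notes. Per the file headers these are expected counts (estimated reads per gene, not scaled for depth), TPM and FPKM (both scaled for depth and length), with transcript lengths. No source used here gives the RSEM version, the aligner or the read length. The authors also deposited EBSeq tables for each knockdown, whose posterior probabilities are scores and whose fold changes are ratios to the control, per the file headers.

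Expected counts were rounded, filtered with filterByExpr (14335 of 23845 genes, 99.97% of counts), scaled by TMM and fitted over all 15 libraries at once with edgeR, whose quasi-likelihood test was used, with Benjamini-Hochberg adjustment over all tested genes and a threshold of 0.05. The procedure was tested on simulated data that had neither paired replicates nor shared reads, so that test does not bear on either. Its pass condition was on the size of the fitted log2 changes, not on false calls. The tools were edgeR 4.0.16, DESeq2 1.42.0 and limma 3.58.1 in R 4.3.3. CPM use a prior count of 2 on the log scale. Precision is limited by 3 libraries a group and by 77 to 1198 expected counts a member.

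Replicate numbers pair the libraries: after group means were removed, 30 of 30 correlations between libraries of the same number were over 0.1 (0.106 to 0.335). The main calls and the figures come from the fit that leaves this pairing out. Counts of members and of list genes called with the block are given beside them where they differ. Calls of other single genes are given without the block. The block of replicate number was an alternative, beside RLE factors, other filters, limma-voom, DESeq2, fits of the compared groups alone and each library left out. The labels do not say that replicates came from separate cultures, so p-values measure the spread between these libraries.

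Members and lists were chosen with earlier results of these data known. Named genes are the members, the targets, up to 4 genes per list with the smallest p over 5 groups, and the 8 most and 3 least alike by Pearson's r. Promoters were read from RefSeq (GRCm38.p6), and transcripts from GENCODE M21. FPKM were not used.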

Additional observations from a re-analysis of the deposited data

Results flagged for a closer look

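The knockdowns differed from each other in the Zscan4 members, by the edgeR quasi-likelihood test of the difference itself. Ddx10KD was lower than Ddx24KD, with log2 differences of -1.25 for Zscan4a, -1.34 for Zscan4b, -1.10 for Zscan4c, -1.21 for Zscan4d and -1.25 for Zscan4f, in all 3 Ddx10KD libraries against all 3 Ddx24KD libraries (adjusted p from 0.00193 to 0.0132). Ddx10KD was also lower than Ddx54KD, with -0.97 for Zscan4a, -0.87 for Zscan4c, -0.86 for Zscan4d and -0.96 for Zscan4f, again with no overlap between the libraries (adjusted p from 0.0116 to 0.0406). Among all genes tested, 14.9% had no overlap between Ddx10KD and Ddx24KD, and 19.6% had none between Ddx10KD and Ddx54KD. Without Ddx10KD replicate 2 or 3, no member was called between Ddx10KD and Ddx54KD, and 3 were called between Ddx10KD and Ddx24KD. Because the members share reads, these 9 results are not independent of each other.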

How the results depend on the processing

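Precision is limited by 3 libraries a group and by reads divided among near-identical copies. Each of 155 results was recomputed with each of the 15 libraries left out and under up to 7 other alternatives, which gave 3357 values. Of these 3085 kept their direction and side of the threshold, 206 fell below the threshold, 34 passed it, 31 counts moved by over 1.5 times and 1 reversed: Zscan4a in Ddx27KD over Ddx54KD, -0.25 to 0.00115 with 1 library left out (0.00115 without Ddx27KD replicate 3) and -0.16 with all. With the replicate block, the members called were 4 in Ddx27KD (2 without it), and 5570 genes were called in Ddx54KD (3483 without it). Over the 6 pairs of knockdowns, counting a member once for each pair, the calls were 15 with the block and 9 without it. The block ended no call of a member. In the same count DESeq2 gave 14 calls and fits of the compared groups alone 5, and in Ddx27KD such a fit called 4 members. Of all 14335 genes DESeq2 called 173, 168 and 440 in Ddx10KD over Ddx24KD, Ddx27KD and Ddx54KD. Under a filter of 10 CPM in 3 libraries, which leaves fewer genes to test, 1 gene of the 2-cell list was called in Ddx10KD, 4 in Ddx24KD, 4 in Ddx27KD and 3 in Ddx54KD. With 1 library left out, the members called were 0 to 4 in Ddx27KD, 1 to 4 in Ddx54KD, 5 in Ddx24KD and 0 in Ddx10KD. The calls of a member over the pairs of knockdowns were then 3 to 10. Genes called in Ddx54KD then ran from 2232, without Ddx54KD replicate 3, to 3868. Calls of the 2-cell list ran from 1 to 3 in Ddx10KD, 15 to 19 in Ddx24KD, 5 to 11 in Ddx27KD and 5 to 11 in Ddx54KD. The summed level over EGFPKD stayed at -0.47 to -0.14 in Ddx10KD, 0.77 to 1.09 in Ddx24KD, 0.36 to 0.63 in Ddx27KD and 0.56 to 0.79 in Ddx54KD (log2). Where not stated, the cause was not tested.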
